A study of Rattus norvegicus with 3 samples.

Results

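The axon guidance ligands and receptors of the postnatal rat cochlea were read as 61 genes of 9 families, the semaphorins, plexins, neuropilins, ephrins, Eph receptors, netrins, Unc5 receptors, Slits and Robo receptors. They were taken by gene symbol, and 67 of the 32623 genes in the matrices matched. Members were then selected on their measured total, with at least 20 unique molecular identifiers (UMIs, 1 per captured RNA molecule) over all kept barcodes. The 6 genes left out were Efna3 with 17 UMIs, Epha10 with 12, Epha8 with 11, Robo3 with 6, Robo4 with 5 and Unc5a with 2. The members nearest to the limit were Sema5b with 55 UMIs and Plxnb1 with 71. All semaphorins (20), plexins (9), neuropilins (2), netrins (4) and Slits (3) that matched were kept, with 7 of 8 ephrins, 11 of 13 Eph receptors, 3 of 4 Unc5 receptors and 2 of 4 Robo receptors.

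The cells came from untreated Sprague-Dawley rats aged 1, 7 or 14 days after birth (P1, P7 and P14). For each age 40 rats were pooled into 1 single-cell library of dissociated cochlear tissue, so stage and library cannot be told apart and no test of a difference was made. The 3 groups share strain, tissue and the absence of treatment, and the labels name no genetic change.

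These genes steer growing axons and also shape blood vessels and tissue borders. Semaphorins signal through plexins, and most secreted class 3 semaphorins need a neuropilin as co-receptor. Ephrins are held at the membrane and bind Eph receptors on a neighbouring cell, with signals in both directions, Slits are secreted ligands of Robo receptors, and netrins bind Unc5 and Dcc receptors. In the cochlea they are known for the paths that spiral ganglion neurites take through the glia and mesenchyme to the sensory epithelium.

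The labels name the cells as greater epithelial ridge cells, but the epithelial markers (Epcam, Epyc, Tecta and 7 others) led in 1 of 28 clusters only. That cluster held 2.11% of the kept cells at P1, 1.82% at P7 and 1.00% at P14, so the libraries were read as whole tissue. Kept barcodes numbered 13162, 12664 and 5282, with 112269286, 96017007 and 11673483 UMIs in all and a median of 6679, 6902.5 and 1614.5 per cell, so the P14 library is the shallowest. Clusters were grouped into broad classes, most of them named for the markers that led them. The stroma-like class took the clusters that no other marker list named and that carried several stromal markers. A class was read at a stage where it had at least 50 cells. The stroma-like class was the largest (8577, 7032 and 2927 cells at P1, P7 and P14), followed by the glia-like (1677, 3007 and 360), endothelium-like (201, 194 and 984), mural-like (pericytes and smooth muscle; 329, 290 and 62), epithelium-like (278, 231 and 53) and macrophage-like (182, 181 and 347) classes. Neuron-like cells reached 50 at P1 only (581 cells, against 39 and 20 later), and B lineage-like cells at P14 only (417). Cells of unnamed clusters were in no class and were left out of all levels by class. Dividing clusters held 1019 cells at P1 and 984 at P7, and a cluster mostly of marked doublets held 256 and 449. A mixed cluster held 105 cells at P14, and another unnamed cluster held 246 at P7. The macrophage-like class also carried neutrophil markers, and the 8 of them had 12279 summed counts per 1000000 UMIs (CPM) at P1, 516 at P7 and 2638 at P14. Barcodes shared between libraries numbered 54 for P1 and P7, 16 for P1 and P14, and 19 for P7 and P14.

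A level is in CPM, from the UMIs of a gene and of all genes summed over the cells of a class in 1 library. Its interval is the exact Poisson interval at the 95% level, which covers counting error only and says nothing of variation between animals or libraries. A gene entered a comparison if the higher side had at least 5 CPM and 10 UMIs, and it was called if the ratio of the sides was at least 2 after 1 CPM was added to both sides. The members were left out of the genes that built the clusters, but the clusters come from the same cells, and all levels are a description.

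Of the members, 6 were called in the same class at all 3 stages, namely Efna1, Plxnd1 and Sema7a in endothelium-like cells, Plxnb3 and Sema3b in glia-like cells and Sema4a in macrophage-like cells. The 300 bases around their start (250 before and 50 after) are shown for the 5 of them in the RefSeq promoter table, which held 46 of the 61 members. They were chosen because they were called in the same class at all 3 stages, though other classes had UMIs of them too. The windows are from RefSeq build GRCr8 on the gene's strand, at chr2:176986772-176987071 (minus) for Efna1, chr4:150715138-150715437 (minus) for Plxnd1, chr8:67244068-67244367 (plus) for Sema7a, chrX:156646624-156646923 (plus) for Plxnb3 and chr2:176212209-176212508 (minus) for Sema4a. Capitals mark the core letters searched, on both strands, which were CCGGAA and CAGGAA (ETS factors) in the endothelial genes, ACAAAG and ACAATG (SOX factors) in the glial gene and GAGGAA (the PU.1 type) in the macrophage gene.
Efna1: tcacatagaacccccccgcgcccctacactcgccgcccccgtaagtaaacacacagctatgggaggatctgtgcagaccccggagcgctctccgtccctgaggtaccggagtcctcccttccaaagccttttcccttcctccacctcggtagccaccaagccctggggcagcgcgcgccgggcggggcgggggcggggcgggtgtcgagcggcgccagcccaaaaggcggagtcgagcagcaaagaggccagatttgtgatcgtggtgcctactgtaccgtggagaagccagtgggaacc
Plxnd1: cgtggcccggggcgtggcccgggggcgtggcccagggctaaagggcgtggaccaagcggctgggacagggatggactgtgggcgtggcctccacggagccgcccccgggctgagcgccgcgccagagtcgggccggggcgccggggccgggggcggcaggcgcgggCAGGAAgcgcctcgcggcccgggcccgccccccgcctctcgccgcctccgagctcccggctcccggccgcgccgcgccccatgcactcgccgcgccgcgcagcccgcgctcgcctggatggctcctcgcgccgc
Sema7a: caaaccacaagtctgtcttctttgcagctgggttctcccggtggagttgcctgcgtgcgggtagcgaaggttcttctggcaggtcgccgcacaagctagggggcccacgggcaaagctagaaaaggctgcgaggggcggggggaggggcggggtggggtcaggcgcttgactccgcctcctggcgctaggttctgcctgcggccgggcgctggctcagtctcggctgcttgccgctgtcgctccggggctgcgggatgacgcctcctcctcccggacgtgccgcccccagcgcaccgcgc
Plxnb3: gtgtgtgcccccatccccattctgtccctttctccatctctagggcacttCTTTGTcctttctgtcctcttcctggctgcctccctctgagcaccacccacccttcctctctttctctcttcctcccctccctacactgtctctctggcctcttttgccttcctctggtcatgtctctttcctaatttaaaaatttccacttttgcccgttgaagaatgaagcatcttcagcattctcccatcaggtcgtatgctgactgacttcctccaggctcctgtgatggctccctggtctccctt
Sema4a: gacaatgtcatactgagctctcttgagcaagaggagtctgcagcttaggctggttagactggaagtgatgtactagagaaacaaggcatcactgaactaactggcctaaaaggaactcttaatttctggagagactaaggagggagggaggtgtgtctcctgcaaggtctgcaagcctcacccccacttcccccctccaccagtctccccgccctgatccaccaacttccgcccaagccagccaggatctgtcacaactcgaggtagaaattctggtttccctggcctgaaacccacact
CAGGAA stood once in the Plxnd1 window and ACAAAG once, on the other strand, in the Plxnb3 window. Over 33469 windows of this length CAGGAA was present in 29.1%, ACAAAG in 18.8%, CCGGAA in 14.95%, ACAATG in 13.2% and GAGGAA in 27.6%, so a match is a description of letters only.

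The families were spread over all classes. At P1, 50 of the 61 members entered and 23 (46%) were called higher in 1 class than in every other, against 25.8% of all genes. At P7, 19 of 47 were called (40.4%, against 22.1% of all genes), and at P14, 26 of 37 (70.3%, against 28.9%). A ratio of at least 4 was reached by 9 members at P1, 6 at P7 and 10 at P14, or 18%, 12.8% and 27.0% of those that entered, against 12.4%, 10.4% and 12% of all genes. The median ratio of the highest class over the next was 1.88, 1.65 and 2.27 for members and 1.31, 1.24 and 1.435 for all genes at P1, P7 and P14. At P1 the neuron-like class held the most calls, 11 of the 23. The highest class at P7 and P14 was set without neuron-like cells, so a count at P1 and a later one are not over the same classes. The counts depended on depth and on the added value. With cells thinned to at most 1500 UMIs 7 of 38 members were called at P7. With 10 CPM added 12 of 50 were called at P1 and 9 of 47 at P7. The share over all genes was not read under these settings, so an excess of members over all genes is not shown there.

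**Figure D1:**
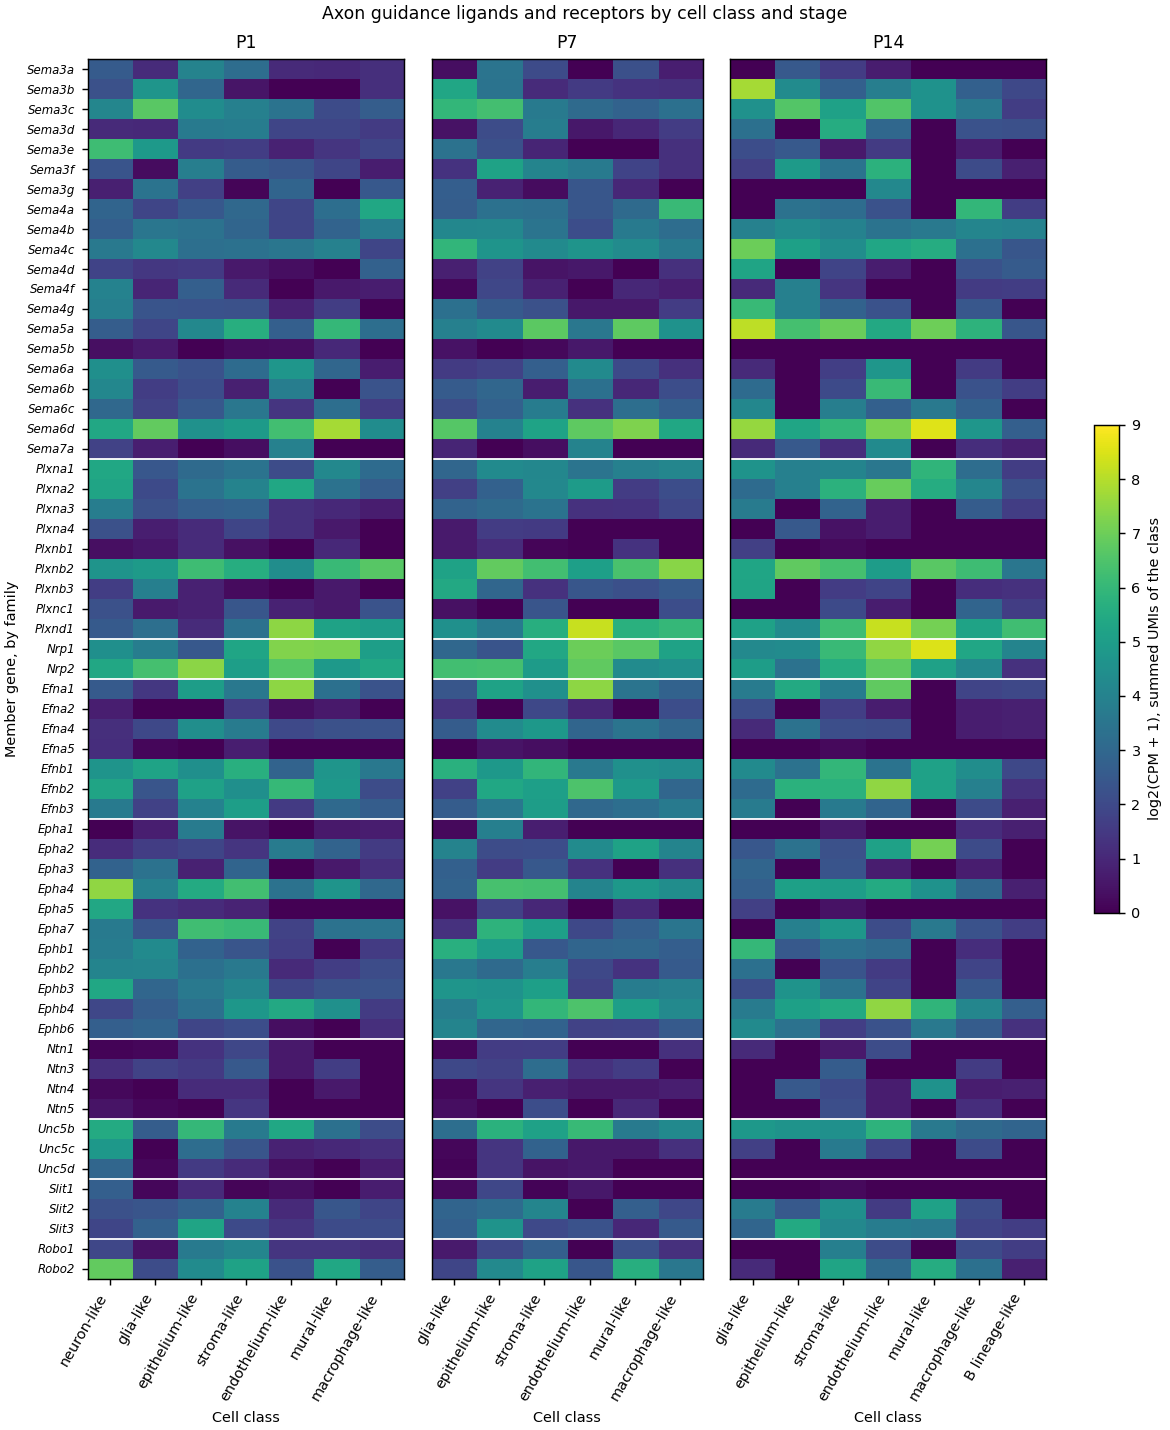
Level of the 61 members in each cell class (columns) at P1, P7 and P14 as log2(CPM + 1) of the summed UMIs, with white lines between families. Across the classes, Efna1 and Plxnd1 are highest in the endothelium-like column at all 3 stages, Epha4, Epha5 and Robo2 in the neuron-like column at P1, and Sema3b and Sema5a in the glia-like column at P14.

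The 20 semaphorins held 52189 UMIs. Sema6d, a transmembrane ligand of class A plexins, was measured at 43.6 CPM in the P1 library, 53.9 at P7 and 76.4 at P14. It was highest in mural-like cells at every stage, with 218 CPM (198 to 240) at P1, 151 (135 to 170) at P7 and 380 (262 to 534, from 33 UMIs) at P14. The next class had 113 CPM (glia-like) at P1, 108 (endothelium-like) at P7 and 189 (glia-like) at P14. Sema5a, a membrane semaphorin with thrombospondin repeats, stood at 36.5 CPM in the P1 library, 74.0 at P7 and 98.3 at P14. At P1 and P7 mural-like cells (63.2 and 109 CPM) and stroma-like cells (49.4 and 105) were highest, and at P14 glia-like cells were, at 275 CPM (241 to 311). Its order of classes therefore changed between P7 and P14.

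The class 3 semaphorins, which are secreted, differed by class and stage. Sema3c was a glial gene at P1, with 102 CPM (95.7 to 109) in glia-like cells and 19.98 in the next class, epithelium-like cells. Epithelium-like cells had 78.7 CPM (68.1 to 90.5) at P7, and glia-like cells then had 61.9 (58.2 to 65.9). Sema3b followed another course, with 24.8 CPM in glia-like cells at P1, 38.8 at P7 and 220 (190 to 253) at P14, and with at most 23.1 CPM in any other class at any stage. Sema3e, a ligand that binds Plxnd1 without a neuropilin, had 72.9 CPM in neuron-like cells and 27.2 in glia-like cells at P1. At P7 it had at most 9.60 CPM in any class read, and neuron-like cells were then too few to be read. Sema3d was called in stroma-like cells at P7 and P14, with 13.0 and 46.9 CPM (41.4 to 53.0), while at P1 stroma-like and epithelium-like cells had overlapping intervals (12.8 and 11.7 CPM). Sema3g in endothelium-like cells had 24 UMIs at P1 (6.5 CPM, against 9.88 in glia-like cells), 9 at P7 (4.31 CPM) and 27 at P14 (17.4 CPM, 11.5 to 25.3), when no other class had a UMI. By class, Sema3a (15.5 CPM at P1 and 10.0 at P7) and Sema3f (13.6 and 35.3) were highest in epithelium-like cells. Of the 25 UMIs of Sema3a there at P7, 8 lay in 1 cell. Single stromal clusters had more Sema3a, with 22.0 CPM in c1 at P1 and 13.4 in c5 at P7.

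Of the class 4 semaphorins, Sema4a was the macrophage gene. It had 40.4 CPM (30.9 to 51.9) in macrophage-like cells at P1, 67.7 (55.0 to 82.4) at P7 and 61.0 (49.3 to 74.6) at P14, and at most 9.53 in any other class. Sema4g was called in neuron-like cells at P1 (13.8 CPM) and in glia-like cells at P14 (65.9, 50.2 to 85.0). Sema4d, which signals through class B plexins, was at or under 5.96 CPM in all classes at P1 and P7, and reached 36.9 CPM (25.4 to 51.8) in glia-like cells at P14. Its 33 UMIs there came from 14 of 360 cells, and with a mitochondrial limit of 10% glia-like cells were no longer its highest class. Sema4c was called in glia-like cells at P7 (59.6 CPM) and at P14 (124, 102 to 149). Sema4f was called in neuron-like cells at P1 (14.7 CPM), and Sema4b had its highest class at or under 19.1 CPM and was not called at any stage.

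Sema6a, Sema6b and Sema7a were endothelial by level at P14. Sema6b had 17.1 CPM in neuron-like cells and 13.0 in endothelium-like cells at P1, 9.09 in endothelium-like cells at P7, and 67.0 (54.8 to 81.2) there at P14, with 7.82 in the next class. Sema6a in endothelium-like cells had 25.2, 18.7 and 25.8 CPM at the 3 stages, and at P1 the neuron-like class, at 21.1, was near to it. Sema7a, a GPI-anchored semaphorin whose receptor is Plxnc1, had 14.4 CPM (10.8 to 18.8), 15.3 (10.5 to 21.6) and 18.7 (12.5 to 26.8) in endothelium-like cells. Sema6c was at or under 16.8 CPM and Sema5b at or under 1.06 CPM in every class.

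Of the receptors for semaphorins, Plxnd1 had 15.1 CPM in the P1 library, 46.8 at P7 and 96.8 at P14, and in endothelium-like cells 178 (165 to 192), 304 (281 to 329) and 300 (274 to 329). The next class had 35.6 CPM at P1 (mural-like), 62.9 at P7 (macrophage-like) and 138 at P14 (mural-like, 71.5 to 242, from 12 UMIs). After every cell was thinned to 1000 UMIs, 18.1% of endothelium-like cells had a Plxnd1 UMI at P1, against 3.66% of mural-like and 0.693% of neuron-like cells, at median depths before thinning of 11031, 5218 and 23176 UMIs. Plxnb2 was measured in every class. It was highest in macrophage-like cells at P1 and P7, with 101 CPM (85.3 to 118) and 170 (149 to 192), and between 30.3 and 110 CPM in all classes but B lineage-like cells (10.7) at P14. Plxnb3 was the glial plexin, with 14.0 CPM (11.6 to 16.7), 41.9 (38.8 to 45.1) and 36.9 (25.4 to 51.8) in glia-like cells, and at most 6.83 CPM in any other class. Plxna1 was called in neuron-like cells at P1 (40.6 CPM), and Plxna2 in endothelium-like cells at P14 (120, 103 to 138). Plxna3 had its highest level in neuron-like cells at P1 (12.9 CPM), and Plxna4, Plxnb1 and Plxnc1 stayed at or under 6.42 CPM in every class and stage.

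Both neuropilins were high in endothelium-like cells and differed in other classes. Nrp1, also a co-receptor of VEGF, had 157 CPM (144 to 170) in endothelium-like and 148 (131 to 166) in mural-like cells at P1, 124 and 102 at P7, and 180 and 369 (252 to 521) at P14. In epithelium-like cells it had 4.52 CPM at P1 and 4.02 at P7. Nrp2 was highest in epithelium-like cells at P1, with 173 CPM (157 to 189), then in endothelium-like (98.3) and glia-like (79.6) cells, and in mural-like cells it had 28.1. Of the 458 UMIs of Nrp2 in epithelium-like cells at P1, 71 lay in 1 cell. At P7 endothelium-like (111), epithelium-like (79.5) and glia-like (75.8) cells had the 3 highest Nrp2 levels, and the intervals of the last 2 overlapped. The class with the lowest Nrp1 at P1 was thus the one with the highest Nrp2.

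The ephrins were led by Efna1 and Efnb2 in endothelium-like cells. Efna1 had 14.9, 20.04 and 24.3 CPM in the P1, P7 and P14 libraries. In endothelium-like cells it had 177 CPM (164 to 192) at P1, 178 (160 to 197) at P7 and 110 (93.7 to 127) at P14, and the next class, epithelium-like cells, had 31.3, 35.3 and 42.9. Efnb2, the ephrin of arterial endothelium, had 64.7 CPM (56.8 to 73.5), 88.0 (75.8 to 102) and 181 (161 to 204) in endothelium-like cells. It was not called at P1, when neuron-like cells had 37.3, and was called at P7 and P14. Efnb1 was highest in stroma-like cells at all stages (49.7, 60.3 and 61.5 CPM), and its next class was glia-like cells at P1 (36.3) and P7 (52.0). Efnb3 was also stromal, called at P1 (31.7 CPM) and P7 (31.1). Efna4 was highest in epithelium-like cells at P1 (20.7 CPM) and in stroma-like cells at P7 (26.8), and Efna2 and Efna5 stayed at or under 3.42 CPM in every class.

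Of the Eph receptors, Epha4 had 77.1 CPM in the P1 library, 55.5 at P7 and 25.01 at P14. It binds ephrins of both classes. At P1 neuron-like cells had 182 CPM (175 to 189), stroma-like cells 77.2 and epithelium-like cells 44.1, and at P7 epithelium-like (82.7, 71.8 to 94.8) and stroma-like (78.3, 76.0 to 80.7) cells overlapped. Epha7 was shared by epithelium-like cells (74.3 CPM at P1 and 55.4 at P7) and stroma-like cells (67.6 and 33.2), and all other classes had at most 11.8 CPM at these stages. Epha5 was the clearest neuronal member, with 41.4 CPM (38.0 to 45.0) in neuron-like cells at P1 and 1.51 in the next class, a ratio of 16.9 with 1 CPM added. Ephb3 was called in neuron-like cells too, at 40.2 CPM against 16.0 in stroma-like cells. Epha1 was epithelial, with 33 UMIs at P1 (12.4 CPM, 8.56 to 17.5) and 34 at P7 (13.7, 9.45 to 19.1), and at most 0.698 CPM elsewhere at these stages.

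Ephb1 was highest in glia-like cells throughout, with 18.6 CPM (15.8 to 21.7), 49.7 (46.3 to 53.2) and 62.5 (47.2 to 81.2). Ephb6 was called there at P7 (15.5 CPM). Ephb4, the receptor of Efnb2 on venous endothelium, had 42.5 CPM (36.1 to 49.7) in endothelium-like cells at P1, 89.5 (77.1 to 103) at P7 and 181 (161 to 204) at P14, and in stroma-like cells 26.2, 61.3 and 43.6. Epha2 moved from 12.5 CPM in endothelium-like cells at P1 as its highest level to 35.6 in mural-like cells at P7 and 138 (71.5 to 242, from 12 UMIs) there at P14. Ephb2 was at or under 16.0 CPM and Epha3 at or under 9.42 in every class.

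Slit2 and Slit3, secreted ligands, had different highest classes at P1 and P7. Slit2 was called in stroma-like cells at P1 (14.7 CPM, 13.8 to 15.7), and had 16.2 there at P7 and 21.4 at P14. Slit3 was called in epithelium-like cells at P1 (37.3 CPM, 30.3 to 45.4) and at P7 (23.7, 18.0 to 30.6), and had 3.06 and 2.97 in stroma-like cells. Within the stroma-like class, cluster c5 had 21.4 CPM of Slit3 at P7. At P14 stroma-like cells had 96 UMIs of Slit3 (17.5 CPM), and the 9 UMIs in epithelium-like cells were too few to enter. Slit1 was called in neuron-like cells at P1, at 5.53 CPM. Among their receptors, Robo2 had 114 CPM (109 to 120) in neuron-like cells at P1, 39.8 in mural-like and 35.8 in stroma-like cells, and without neuron-like cells mural-like (48.8, 39.5 to 59.5) and stroma-like (35.4) cells led at P7. Robo1 was highest in stroma-like cells, at 16.1, 5.64 and 13.9 CPM.

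The netrins were measured at low levels in all 3 libraries, with 1929 UMIs over 4 genes. Ntn3 was highest in stroma-like cells, with 4.66 CPM (4.15 to 5.21) at P1, 8.30 (7.55 to 9.10) at P7 and 5.11 (3.40 to 7.39) at P14. With cells thinned to at most 1500 UMIs stroma-like cells were no longer its highest class at P7 (log2 ratio -0.58). Ntn1 had 2.78 CPM (2.39 to 3.22) and 2.11 (1.74 to 2.53) in stroma-like cells at P1 and P7, and Ntn5 had at most 3.47 CPM in any class. By class, Ntn4 had at most 4.76 CPM outside the mural-like cells of P14, where 23.1 CPM rested on 2 UMIs. Single stromal clusters stood above their class. Cluster c19 at P14 had 12.4 CPM of Ntn4 (6.21 to 22.2, 11 UMIs) and 11.3 of Ntn5 (5.42 to 20.8, 10 UMIs), and c1 at P1 had 13.2 of Ntn1. Their receptor Unc5b was spread wider, with 62.6 CPM (53.4 to 72.9) in epithelium-like, 44.1 in neuron-like and 39.8 in endothelium-like cells at P1, and 65.6 (55.0 to 77.5) in endothelium-like cells at P7. Unc5c was called in neuron-like cells at P1, with 26.6 CPM (23.9 to 29.5) against 8.29 in the next class, and in stroma-like cells at P7 (6.15, with a log2 ratio of -0.085 over the next class after thinning) and P14 (12.2). Unc5d was called in neuron-like cells at P1, at 6.88 CPM.

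The comparison of P7 with P1 within a class asked how these levels moved over the first postnatal week. In glia-like cells 9 of the 32 members that entered were higher at P7 (28.1%, against 9.71% of all genes) and 2 were lower (6.25%, against 9.51%). Epha2 had 2.09 CPM (1.24 to 3.31) at P1 and 15.4 (13.5 to 17.4) at P7, Sema5a 2.67 and 14.0, Ephb3 6.86 and 25.1, Sema4c 17.6 and 59.6, Plxnb3 14.0 and 41.9, and Ephb1 18.6 and 49.7. The others higher were Plxnd1, Ephb4 and Ephb6, at ratios from 2.23 to 2.33. Sema3e was lower at P7 (27.2 and 9.60 CPM), and so was Epha4 (14.6 and 6.34). The glia-like cells of P1 came mostly from cluster c8 and those of P7 mostly from c2, which both carried Schwann cell markers. Within each of these 2 clusters all 11 members moved in the same direction as in the whole class.

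In stroma-like cells 6 of 36 were higher (16.7%, against 10.0% of all genes) and 3 lower (8.33%, against 5.23%). Plxnd1 was the furthest apart, with 9.24 CPM (8.52 to 10.0) at P1 and 48.8 (47.0 to 50.7) at P7. Unc5b had 11.8 and 34.9, Sema3f 5.11 and 15.6, Ephb4 26.2 and 61.3, Sema5a 49.4 and 105, and Efna4 12.5 and 26.8. Robo1 (16.1 and 5.64 CPM), Sema3a (8.37 and 3.18) and Epha7 (67.6 and 33.2) were lower. Of 6 stromal clusters with 50 or more cells at both stages, Plxnd1 was higher at P7 in all 6, by 1.58 to 2.47 on the log2 scale, and Robo1 and Epha7 were lower in all 6. Sema3a and Sema5a moved the other way in 1 of the 6 clusters each, and Sema5a reached 2-fold in none of them (from -0.41 to 0.70 on the log2 scale). Unc5b ran from 0.00079, or no change, to 3.09 on the log2 scale over the same 6 clusters. The clusters that held the class differed between stages, with 3406 cells at P1 and 854 at P7 in c0, 1564 and 276 in c4, 1548 and 261 in c5, 827 and 2206 in c1, and 25 and 1635 in c7.

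**Figure D2:**
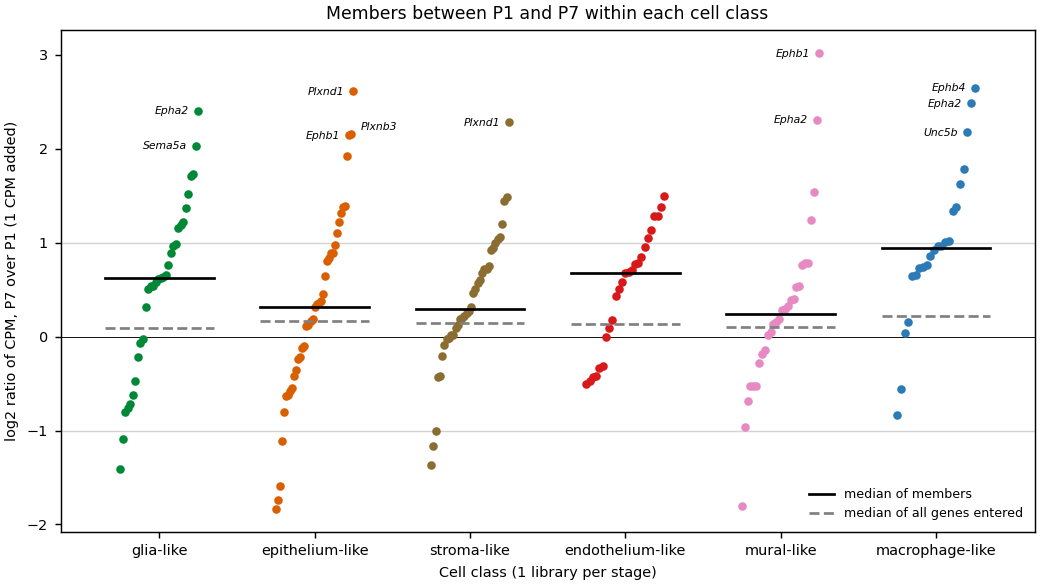
Log2 ratio of CPM at P7 over P1 (1 CPM added) for each member that entered, by cell class, with points in order of size, a black line at the members' median and a grey dashed line at the median of all genes. The members' median lies above that of all genes in each of the 6 classes, with 0.62 against 0.10 in glia-like cells, and Plxnd1 is the highest point in stroma-like and epithelium-like cells.

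In epithelium-like cells 9 of 39 members were higher (23.1%, against 14.2% of all genes) and 4 lower (10.3%, against 7.04%). Sema3c had 19.98 CPM (14.97 to 26.1) at P1 and 78.7 (68.1 to 90.5) at P7, Ephb1 had 6.03 and 30.1 (23.7 to 37.7), and Sema3f had 13.6 and 35.3. Plxnd1 had 3 UMIs at P1 and 30 at P7, a ratio of 10.6 with a counting interval from 3.31 to 54.5, and Plxnb3 had 2 and 17, a ratio of 9.05 (2.15 to 80.8). Nrp2 was lower at P7 (173 and 79.5 CPM), as were Robo1 (11.7 and 2.81), Sema3d (11.7 and 3.21) and Unc5c (8.29 and 1.61), though after thinning the log2 ratio of Robo1 was 0.62. The P1 level of Nrp2 came from 77 of 278 cells, and 71 of its 458 UMIs lay in 1 cell. Its call held under 9 of 12 alternatives. Summed markers of fibroblasts (8 genes) had 312 CPM at P1 and 1060 at P7 in this class, and those of glia (9 genes) 561 and 1375, and their part in these differences was not tested.

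In endothelium-like cells 6 of 25 were higher (24%, against 9.84% of all genes) and 0 lower (0 of 25, against 4.87%). Ephb4 had 42.5 and 89.5 CPM, Sema4c 10.6 (7.51 to 14.4) and 24.4 (18.2 to 32.1), and Plxna1, Sema3f, Efnb3 and Ephb1 were between 6.7 and 11.96 CPM at P7. Efna1 was at 177 and 178. In mural-like cells 4 of 28 were higher (14.3%, against 9.41%) and 1, Plxna2 with 18 and 4 UMIs, was lower (3.57%, against 6.26%). Epha2 had 6.37 CPM (3.29 to 11.1) at P1 and 35.6 (27.7 to 44.9) at P7. Ephb1 had 0 UMIs at P1 and 14 at P7, at least 4.46-fold higher when the P1 side was set at 3 counts. Ephb3 and Efna4 were the others higher there, and after thinning the log2 ratio of Ephb3 was -0.19. In macrophage-like cells 9 of 22 were higher (40.9%, against 17.2% of all genes) and 0 lower (0 of 22, against 6.84%). The count was 3 of 9 higher and 1 lower without the cells marked as doublets, 3 of 12 higher with a mitochondrial limit of 10% and 3 of 22 with 10 CPM added. Ephb4 had 3 and 26 UMIs there, a ratio of 8.95 (2.74 to 46.2), Epha2 3 and 23, a ratio of 7.91 (2.39 to 41.2), and Unc5b 5 and 27, or 3.31 and 18.5 CPM. Epha4, Ephb3, Plxnd1, Sema4c and Sema5a were also higher. Efnb3 was called with 8 and 17 UMIs, but the interval of its ratio ran from 0.897 to 5.87, and without marked doublets its log2 ratio was -0.91. Markers of cochlear mesenchyme (11 genes) summed to 2330 CPM at P1 and 4825 at P7 in this class, and neutrophil markers to 12279 and 516, and their part in the counts was not tested. With 10 CPM added, 5 of 32 members were higher at P7 in glia-like, 2 of 36 in stroma-like and 2 of 39 in epithelium-like cells. It was 0 of 25 in endothelium-like and 1 of 28 in mural-like cells, and the share over all genes was not read under the alternatives.

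Between P7 and P14 most cells of the glia-like, stroma-like and endothelium-like classes lay in different clusters. The epithelium-like, mural-like and macrophage-like classes were each the same cluster at both stages. In endothelium-like cells 13 of 30 members were higher at P14 (43.3%, against 28.7% of all genes) and 0 lower (0 of 30, against 8.93%). Sema3c had 7.66 CPM (4.38 to 12.4) at P7 and 94.1 (79.4 to 111) at P14, Sema6b 9.09 and 67.0, Sema3f 11.96 and 53.5, and Plxna2 29.7 and 120. Efnb2 (88.0 and 181) and Ephb4 (89.5 and 181) were both about 2-fold higher. Sema5a had 11.005 and 42.5, Epha4 15.8 and 43.8 and Sema3g 4.31 and 17.4, and Sema3b, Sema3d, Sema4b and Slit3 were at or under 3.83 CPM at P7 and between 7.09 and 13.5 at P14, where Sema3d had 1 and 11 UMIs, a ratio of 14.8 (2.15 to 638). Of the P14 cells 954 of 984 lay in cluster c10 (led by Slco1a4, Vwf and Abcb4), while 156 of the 194 P7 cells lay in c20 (led by Plvap, Cldn5 and Clec14a). Summed glial markers (9 genes, all with UMIs) had 446 CPM at P7 and 3434 at P14 in this class, and their part in the result was not tested.

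In glia-like cells 11 of 32 were higher at P14 (34.4%, against 17.3% of all genes) and 9 lower (28.1%, against 16.6%). Sema5a had 14.0 CPM (12.3 to 16.0) at P7 and 275 (241 to 311) at P14, Sema3b 38.8 and 220, Sema4g 9.05 and 65.9, Sema4d 0.739 and 36.9, and Sema4c 59.6 and 124. Sema6c, Plxna1, Unc5b, Nrp1, Efna1 and Efnb3 were higher too, and Unc5b was not with a mitochondrial limit of 10%. Nrp2 (75.8 and 31.3 CPM), Sema3c (61.9 and 22.3), Efnb1 (52.0 and 18.99) and Ephb3 (25.1 and 3.35) were lower, the last by a ratio of 7.50 (2.55 to 36.5) from 3 UMIs at P14. Sema3g and Sema4a had 0 UMIs at P14 and were at least 1.62-fold and 1.56-fold lower with the P14 side at 3 counts. Epha2 (4 UMIs at P14), Efna4 (1 UMI) and Sema3e (3 UMIs) were called lower too, but the counting intervals of the ratio reached 0.809 for Efna4 and 0.963 for Sema3e, on the other side of 1. Of the P14 cells 339 of 360 lay in cluster c21, which had Prx and Mag, genes of myelinating cells, among its leading genes. At P7 a cluster of 143 cells, c24, had Mbp and Mag among its leading genes, and within it Sema5a had 73.1 CPM, Sema3b 67.3, Sema4g 40.1 and Sema4c 74.5. The other 2 glial clusters of P7 had 8.26 and 9.05 CPM for Sema5a and 6.12 and 6.22 for Sema4g. In c21 at P14 these 4 genes had 283, 228, 66.5 and 126 CPM.

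**Figure D3:**
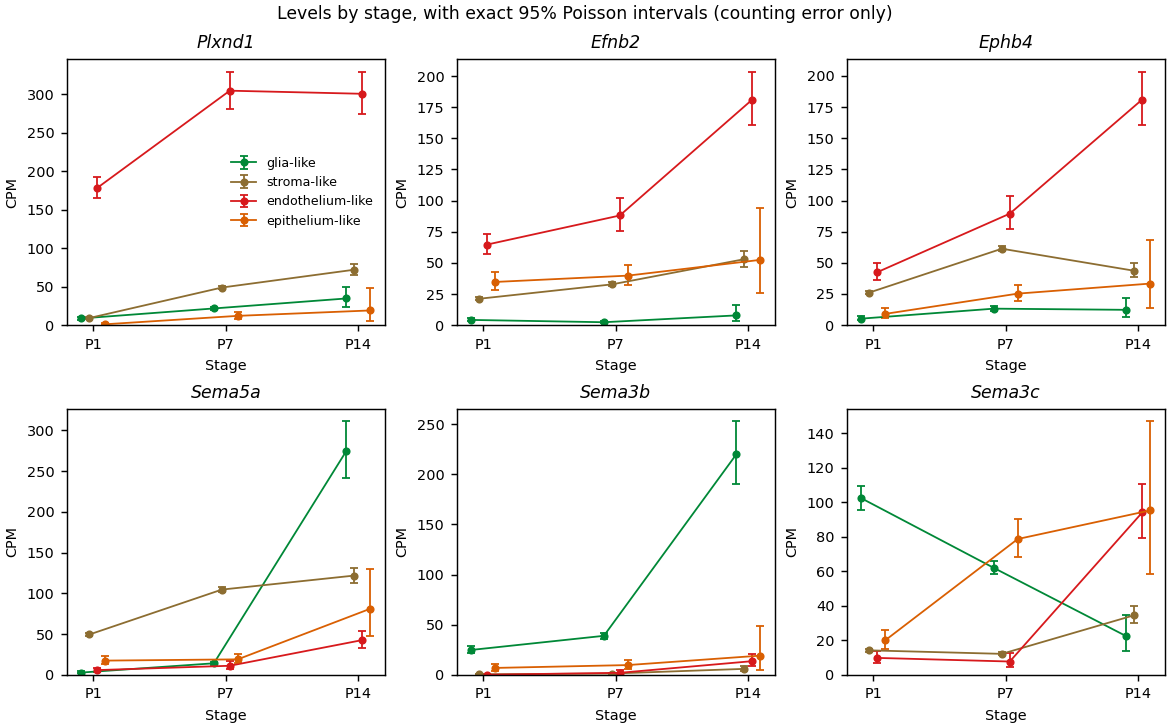
CPM of 6 members at P1, P7 and P14 in glia-like, stroma-like, endothelium-like and epithelium-like cells, with bars for the exact Poisson interval at the 95% level. Plxnd1, Efnb2 and Ephb4 are highest in endothelium-like cells at each stage, Sema5a and Sema3b reach 275 and 220 CPM in glia-like cells at P14, and Sema3c is down in glia-like cells at each step and up in endothelium-like cells at P14 (the epithelium-like P14 point rests on 53 cells).

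In stroma-like cells 6 of 38 were higher at P14 (15.8%, against 18.2% of all genes) and 7 lower (18.4%, against 10.4%). Slit3 had 2.97 and 17.5 CPM, Sema3d 13.0 and 46.9, Plxna2 17.5 and 54.0, Sema3c 12.1 and 34.5, Robo1 5.64 and 13.9 and Sema3b 1.16 and 5.84. Efna4 (26.8 and 3.47), Ephb3 (32.9 and 9.50), Epha4 (78.3 and 31.4), Efnb3 (31.1 and 11.9), Ephb2 (13.6 and 4.02), Ephb6 (6.17 and 2.19) and Sema6a (5.65 and 2.19) were lower. The stroma-like cells of P14 came from clusters c6, c12 and c19, which held 4, 2 and 31 of the P1 cells and 11, 0 and 53 of the P7 cells, so stage and cluster cannot be told apart here. The 3 small classes of P14 limited what could be read there. In epithelium-like cells (53 at P14) 1 of 23 members was higher, Sema5a (4.35%, against 9.11% of all genes), and 14 were lower (60.9%, against 33.9%). In mural-like cells (62 at P14) 4 of 15 were higher (26.7%, against 9.83%) and 6 lower (40%, against 41.0%). Of the lower calls, 8 of 14 in epithelium-like cells and 6 of 6 in mural-like cells had 0 UMIs at P14, and none of these was 2-fold lower with the P14 side at 3 counts. In macrophage-like cells 2 of 24 were higher, Sema5a and Plxna2 (8.33%, against 19.4%), and 8 lower (33.3%, against 12%). Neutrophil markers summed to 516 CPM at P7 and 2638 at P14 in this class, and their part in these counts was not tested.

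With 10 CPM added in place of 1, 6 of 30 members were higher at P14 in endothelium-like cells. In glia-like cells 5 of 32 were then higher and 4 lower, and in stroma-like cells 4 of 38 were higher and 3 lower. With a mitochondrial limit of 10%, 4 of 30 were lower in glia-like cells. The share over all genes was not read under these settings.

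The stroma-like class joined clusters that no other marker list named, and these clusters differed in the members. At P1, 17 of 42 members that entered were at least 4-fold apart between the highest and the lowest stromal cluster (40.5%, against 12.8% of all genes), and at P7, 28 of 42 were (66.7%, against 37.0%). In 13 of the 28 the lowest cluster was c19, with 53 cells and 0 UMIs of the gene, and without c19 the count was 21 of 43 (48.8%, against 15.7%). Slit2 and Robo1 were read side by side. At P1 Slit2 had 24.1 CPM in c0 (led by Isyna1, Col9a3 and Crym), 27.9 in c1 (Sfrp4, Dlx5 and Gdf10) and 33.6 in c11 (Gcg, Car3 and Cytl1), and 4.61 in c3 (Aldh1a2, Calb2 and Kcnk2) and 3.22 in c5 (Sp5, Cav1 and Ccn3). Cluster c4 was low in both, with 8.23 CPM of Slit2 and 7.70 of Robo1. Robo1 had 27.2 CPM in c3 and 36.3 in c5, and from 5.33 to 8.83 in c0, c1, c4 and c11. Robo2 had 56.1 and 65.1 in c3 and c5, and from 18.5 to 33.4 in the other 4. At P7 Slit2 was again under 7 CPM in c3 and c5 (4.62 and 6.46), while Robo1 (17.3 and 12.9) and Robo2 (92.5 and 43.7) were higher there than in c0, c1, c4 and c11. The 2 clusters read at P7 only did not follow this order, since c7 (led by Dcn, Aard and Gpc3) had 6.49 CPM of Slit2 with 4.16 of Robo1, and c19 had 115 of Robo2 with 19.2 of Slit2.

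The neuropilins and Epha7 also differed among the stromal clusters. In c5 Nrp2 had 66.1 CPM at P1 and 109 at P7, and Nrp1 had 10.4 and 7.95, the lowest Nrp1 of the 6 clusters at both stages. In c11 Nrp1 had 41.5 and 45.0 and Nrp2 4.42 and 4.07. Epha7 had 114 CPM in c5 at P1 and 71.6 at P7, and at most 58.7 and 39.8 in the other 5. Unc5b had 8.14 CPM in c5 at P1 and 77.0 at P7, and 24.5 and 81.8 in c4 (led by Plagl1, Col6a1 and Edn3). At P14 Slit3 had 73.5 CPM in c19 (Clec3b, Rarres1 and Gpcpd1) and 4.87 in c12, Sema3d had 80.5 in c6 (Coch, Otos and Dmp1) and 5.65 in c19, and Efnb2 had 125 in c12 (Ptgds, Slc7a11 and Slc16a11) and 15.8 in c19.

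**Figure D4:**
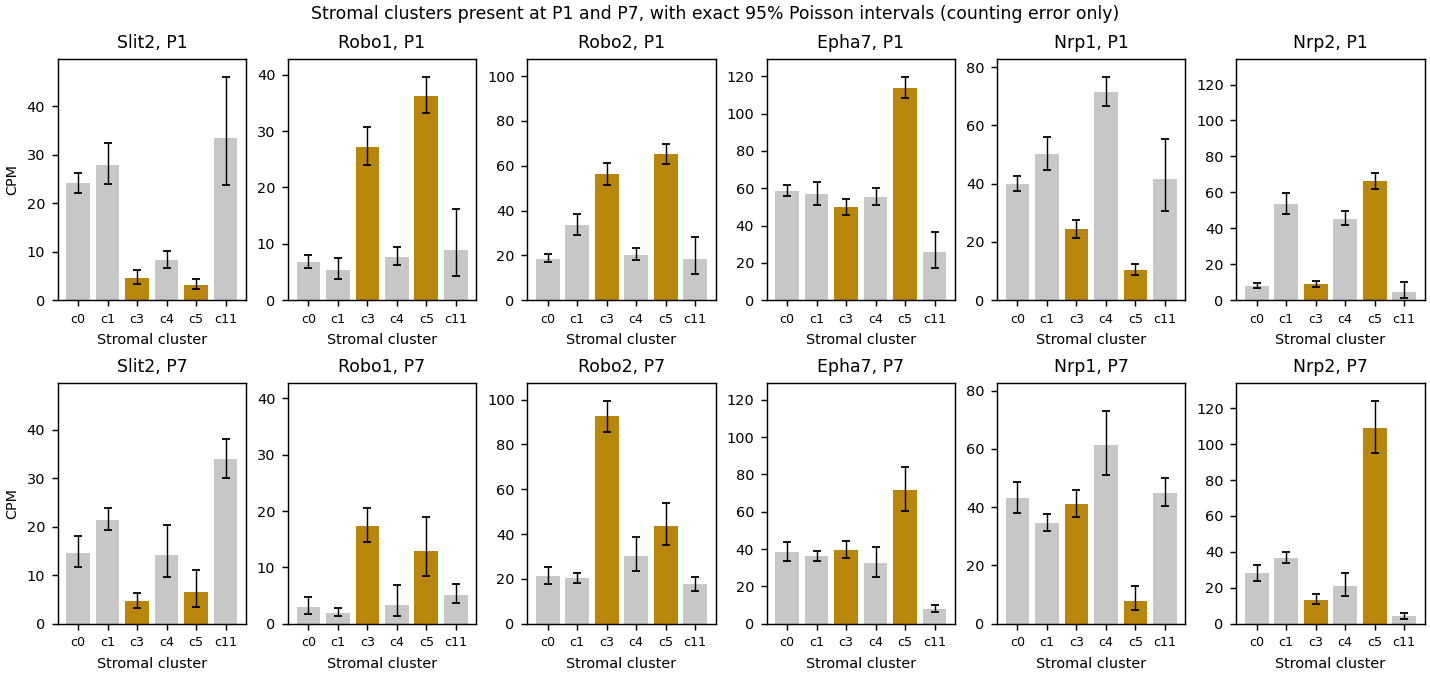
CPM of Slit2, Robo1, Robo2, Epha7, Nrp1 and Nrp2 in the 6 stromal clusters that held 50 or more cells at both P1 (upper row) and P7 (lower row), with exact Poisson intervals at the 95% level and clusters c3 and c5 in dark yellow. Slit2 is lowest in c3 and c5 at P1, where Robo1 and Robo2 are highest, and Nrp1 is lowest and Nrp2 highest in c5.

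Ligands and receptors known to bind each other were set side by side for 20 of 21 pairs with both partners among the members. Both partners entered in 12 pairs at P1, 12 at P7 and 8 at P14, and in 4 of these at each stage they had the same highest class. No background share was set beside these counts, and neuron-like cells were read at P1 only. Efnb2 and Ephb4 shared the endothelium-like class at all 3 stages, and so did Sema6a and Plxna2 (25.2 and 40.4 CPM at P1). Sema3e and Plxnd1 did not at P1, with 72.9 CPM in neuron-like and 178 in endothelium-like cells. By class, Sema3a was highest in epithelium-like cells at P1 and P7, though single stromal clusters had more, while Nrp1 was highest in endothelium-like cells. Sema3c and Nrp2 had glia-like and epithelium-like cells as their highest at P1, and epithelium-like and endothelium-like cells at P7 and P14. At P14 Sema3c had 95.3 CPM in epithelium-like cells (20 UMIs) and 94.1 in endothelium-like cells (146 UMIs). These 2 levels are too near to rank, so at P14 the pair is left out of the same-class count by a near tie. Slit2 was highest in stroma-like cells at P1 and Robo2 in neuron-like cells.

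Other genes of the same pathways were read from 5 lists, of which 57 of 58 genes were in the matrices. Of the collapsin response mediators, which carry semaphorin signals to microtubules, 4 of 5 were called in 1 class at P1, led by neuron-like cells with Crmp1 (352 CPM, 342 to 362, against 14.3 in the next class) and Dpysl3 (285, against 40.3). Of the plexin and neuropilin partners 5 of 9 were called, with Kdr, the VEGF receptor, at 348 CPM (330 to 368) in endothelium-like cells and Plxdc1 at 54.2 (44.2 to 65.8) in mural-like cells. Of the cytoplasmic effectors 5 of the 27 that entered were called, led by Pak3 (51.5 CPM in neuron-like cells) and Farp2 (55.1 in glia-like cells). Of the other netrin, RGM and draxin partners 1 of 5 was called, Ntng1 with 23.0 CPM in neuron-like cells, and Dscam did not enter at 3.66 CPM. Of the FLRT ligands of Unc5 1 of 3 was called, Flrt3 at 50.3 CPM in glia-like cells, and Flrt1 had 10.8 in neuron-like cells. The share over all genes called in 1 class at P1 was 25.8%, as above. Between P1 and P7, 2 of 37 of these genes were higher and 9 lower in glia-like cells, where 9.71% and 9.51% of all genes were, and 6 of 40 were higher and 3 lower in stroma-like cells, where 10.0% and 5.23% of all genes were. Dpysl3 had 40.3 CPM at P1 and 5.602 at P7 in glia-like cells, and Nck1, an adaptor of Eph and Robo signals, had 22.4 and 69.3 in stroma-like cells.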

How the data were processed

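Cells of dissociated rat cochlear tissue were sequenced as 3 libraries, 1 per age, with the 10x 3' kit. The authors ran bcl2fastq and Cell Ranger, and deposited a UMI count matrix per library, with Seurat 3.1.1 named in the submitters' notes; the depth is given in the report. Barcodes with over 500 genes and under 25% mitochondrial UMIs were kept, and clustered in Seurat 5.3.0 (R 4.3.3) on 2000 variable genes without the members, with 10 principal components at resolution 0.8. Scrublet (scanpy 1.11.5) marked 4.855%, 6.14% and 0.0379% of cells at P1, P7 and P14, the last too few to have worked. Marked cells were kept, but a cluster of 705 cells, 85.0% of them marked, was in no class. Counts were summed per class and library with Python 3.11.15, numpy 2.4.6, scipy 1.17.1 and pandas 2.3.3. Shares used cells thinned to 1000 UMIs. The call rules were run on simulated counts with planted changes larger than the fold limit. These counts had no variation between libraries, so the run does not test the calls made here. Every member is named, with full values for the 2 of most UMIs per family and those past 4-fold between classes or between P1 and P7. Members and lists were chosen with earlier results of these data known. With 1 library per stage there are no p-values. Alternatives changed the cell filters, clustering, doublets, depth, added value and minimum level.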

Additional observations from a re-analysis of the deposited data

Results flagged for a closer look

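A member was singled out where 1 class was at least 2-fold higher and another at least 2-fold lower over the same interval of age. This was read over 6 classes between P1 and P7, where 1 gene met it, and over glia-like, stroma-like and endothelium-like cells between P7 and P14, where 4 genes did, and with 1 library per stage the difference between classes was not tested. Values are log2 ratios of the later over the earlier stage with 1 CPM added.

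Between P7 and P14, Sema3c was higher in endothelium-like cells (3.457) and stroma-like cells (1.438) and lower in glia-like cells (-1.431). Efnb3 was higher in glia-like cells (1.106) and lower in stroma-like cells (-1.319). Epha4 was higher in endothelium-like cells (1.417) and lower in stroma-like cells (-1.292). Sema3g was higher in endothelium-like cells (1.794) and lower in glia-like cells (-2.682), where it had 0 UMIs at P14, so that with the P14 side at 3 counts it was at least 1.62-fold lower and 2-fold is not shown. In all 3 classes different clusters held most of the cells at the 2 stages. Between P1 and P7, Epha4 was lower in glia-like cells (-1.092) and higher in macrophage-like cells (1.377), the latter from 11 and 30 UMIs.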

How the results depend on the processing

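No replicate could be left out, and no paired analysis was possible because each stage has 1 library. Adding 10 CPM in place of 1 gave 12 of 50 members called in 1 class at P1 (23 with 1 CPM) and 9 of 47 at P7 (19). Between P1 and P7 over all classes it gave 13 higher (43) and 1 lower (10) of 182 entries of a member in a class. Between P7 and P14 it gave 15 higher (30) and 7 lower (16) of 100 entries. These cover glia-like, stroma-like and endothelium-like cells, as do all values for P14 over P7 here. With no minimum level 66 of 342 were higher and 22 lower between P1 and P7, and 46 of 177 higher between P7 and P14. With cells thinned to at most 1500 UMIs 7 of 38 were called at P7 and 6 of 112 were lower between P1 and P7. No share over all genes was read under these settings. Of the calls, 9 of 23 at P1, 3 of 19 at P7 and 13 of 26 at P14 held under all 12 alternatives, as did 9 of 53 between P1 and P7, and 17 of 46 between P7 and P14 held under 5. Direction changed on the log2 scale for Sema3e in glia-like cells over the next class at P7 (-0.21 with under 5000 genes, -0.45 with a mitochondrial limit of 10%), Sema4d in glia-like cells over the next class at P14 (-0.74, limit of 10%), Unc5b in glia-like cells between P7 and P14 (-0.18, limit of 10%) and Efnb3 in macrophage-like cells between P1 and P7 (-0.91 without marked doublets). After thinning it changed for Unc5c (-0.085) and Ntn3 (-0.58) in stroma-like cells over the next class at P7, Robo1 in epithelium-like cells (0.62) and Ephb3 in mural-like cells (-0.19) between P1 and P7. Leaving out cluster c19, chosen after seeing the data, gave 21 members 4-fold apart between stromal clusters at P7 (28 with it). The cause was not tested. The P14 library limits what can be read there, since mural-like cells with 0 UMIs of a gene allow up to 42.5 CPM.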

Other observations

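A cluster of 21 cells at P1 carried hair cell genes (Otof, Calb1 and Grxcr2 among its leading genes) and was too small to be read as a class. In these hair cell-like cells Robo2 had 88.3 CPM (59.2 to 127) from 29 UMIs and Unc5b 64.0 (39.6 to 97.8) from 21 UMIs. Plxnb2 and Nrp2 had 7 UMIs each, or 21.3 CPM (8.57 to 43.9). B lineage-like cells, read at P14 only, had 104 UMIs of Plxnd1, or 73.9 CPM (60.4 to 89.5), against 71.9 in stroma-like cells.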
